A study of Homo sapiens with 2 samples.

Results

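The chemokine system of the breast cancer cell line CAMA-1 was examined through the chromatin at its genes. The 59 genes comprised every autosomal protein-coding gene of GENCODE release 44 whose symbol is CCL, CXCL, XCL, CCR or CXCR followed by a digit, together with CX3CL1 and CX3CR1 and without CXCL12, out of 19111 autosomal protein-coding genes in all. They fell into 43 ligand genes and 16 receptor genes, and the read-through gene CCL15-CCL14 was counted as a ligand gene. The rule of choice used the symbols and no measured value, although earlier results of these data were known when it was made.

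Accessibility came from ATAC-seq, an assay whose Tn5 transposase cuts and tags DNA that nucleosomes do not hold tightly. CAMA-1 is an established line of epithelial cells from breast tissue, grown here as untreated adherent cultures, and 2 biological replicates of 50000 cells form a single condition, so that no groups were compared and no test between groups was possible. Peaks on hg38 were listed for each replicate on its own, 245736 in replicate 1 and 259745 in replicate 2. The strength of a peak is given as its fold enrichment, a ratio of the reads stacked at its highest base to the genome-wide background of the peak caller, each raised by 1 read. The peak lists do not state the number of reads sequenced, and the background that they imply was 3.35 stacked reads in replicate 1 and 3.52 in replicate 2.

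Chemokines are small secreted proteins that guide the movement of leukocytes along a gradient, and their receptors are G protein-coupled receptors of the cells that move. Many ligand genes arose by tandem duplication and lie side by side, the neutrophil attractants at 4q13 and the monocyte attractants and their relatives at 17q12, while several CC receptor genes share 3p21. Inflammatory ligands are switched on by cytokines through NF-kappaB, AP-1, STAT and interferon regulatory factors in epithelium, fibroblasts and immune cells, whereas most of the receptors are known from leukocytes.

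Markers of luminal epithelium were open throughout. The canonical transcription start site (TSS) is the start of the transcript that Ensembl designates as canonical. A peak covered it in both replicates at 7 of 7 luminal markers, beside 66.0% of all autosomal protein-coding genes. KRT8, a keratin of simple epithelia, was the highest there, at a fold enrichment of 140 in replicate 1 and 119 in replicate 2. GATA3 had 48.3 and 50.0, and ESR1, the lowest, 25.8 and 20.8. The medians over all genes with a covered canonical TSS were 53.4 and 55.4. Of 8 leukocyte markers, 3 had a peak within 1 kb of any TSS in both replicates, beside 80.5% of all genes. Only 1 of these, CD14, had it over its canonical TSS, at 47.9 and 52.6. PTPRC, which encodes the pan-leukocyte antigen CD45, had no peak within 1 kb, nor had CD3E, MS4A1, SPI1 and CD79A.

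Chromatin at the starts of chemokine genes was closed or weakly open for most of them. A peak lay within 1 kb of any annotated TSS in both replicates at 33 of the 59 genes (55.9%), whereas 80.5% of all autosomal protein-coding genes met the same rule. The canonical TSS itself lay under a peak in both replicates at 10 of the 59 genes (16.9%), beside 66.0% of all genes. These 10 were the ligand genes CXCL2, CXCL3, CXCL8, CXCL16, CCL22 and CCL27 and the receptor genes CXCR1, CXCR4, CX3CR1 and CCR8. A further 24 genes had no TSS peak in either replicate, and CXCL1 and CCL3L3 had one in replicate 2 alone.

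Where a TSS peak was present, it was low. The strongest TSS peak of the 33 open genes had a median fold enrichment of 11.7 in replicate 1 and 11.5 in replicate 2, compared with 52.2 and 54.2 over all genes with a TSS peak. Of the 33, 28 lay below the median of all open genes and 0 were among the top 25%. Levels ran from 4.37 at CCL28 to 83.5 at CCR7 in replicate 1, so that the open genes themselves spanned a wide range.

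The replicates gave similar levels at each open gene. Between replicates the log2 ratio of fold enrichments had an SD of 0.24 over the 33 genes and of 0.22 over all 15379 open genes, and all 33 differed by less than 1.5-fold. The 6 genes at the top, which were CCR7, CCR3, CCL27, CX3CL1, CXCL8 and CCR8, held at least 43.3 in both replicates. Every other gene held at most 27.8 in both, a gap wider than the spread between replicates. Within the upper group CCR3, CCL27, CX3CL1 and CXCL8 changed order between replicates, and most neighbours further down differed by less than that spread.

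**Figure D1:**
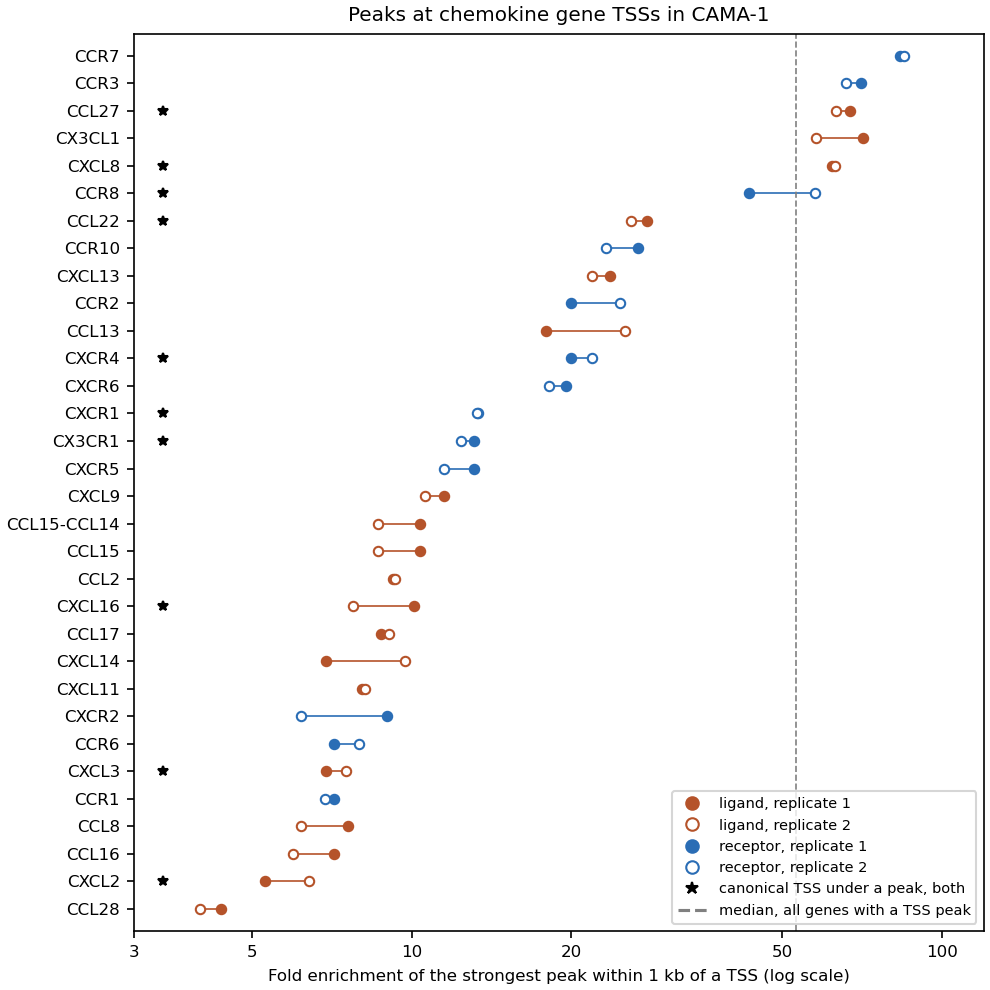
Fold enrichment (log scale) of the strongest peak within 1 kb of any TSS for 32 of the 33 chemokine genes with such a peak in both replicates, with filled points for replicate 1, open points for replicate 2, ligands in brown and receptors in blue. Stars mark the 10 genes whose canonical TSS lay under a peak in both replicates (at CCL27 and CXCL16 that peak is weaker than the one plotted), and the dashed line marks the mean over replicates of the median of all open genes; only 6 genes came near or above it.

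Receptor genes had a TSS peak more often than ligand genes. By the rule of 1 kb around any TSS, 14 of 16 receptor genes (87.5%) and 19 of 43 ligand genes (44.2%) were open in both replicates, on either side of the 80.5% of all genes. The receptor share turned to below that of all genes within 100 bp of a TSS (56.2% beside 74.29%), in a narrower promoter window (62.5% beside 73.92%), with the 5′-most TSS alone (62.5% beside 72.8%) and with the 50000 strongest peaks of each replicate (18.8% beside 62.58%). At the canonical TSS both shares were far under the 66.0% of all genes, with 4 of 16 receptor genes (25%) and 6 of 43 ligand genes (14%). Receptor genes had a median of 3.5 annotated TSSs, ligand genes 2 and all genes 5, and the part of this number in the shares was not tested. Among families, 10 of 27 CCL, 8 of 13 CXCL, 0 of 2 XCL, 8 of 10 CCR and 5 of 5 CXCR genes were open in both replicates.

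**Figure D2:**
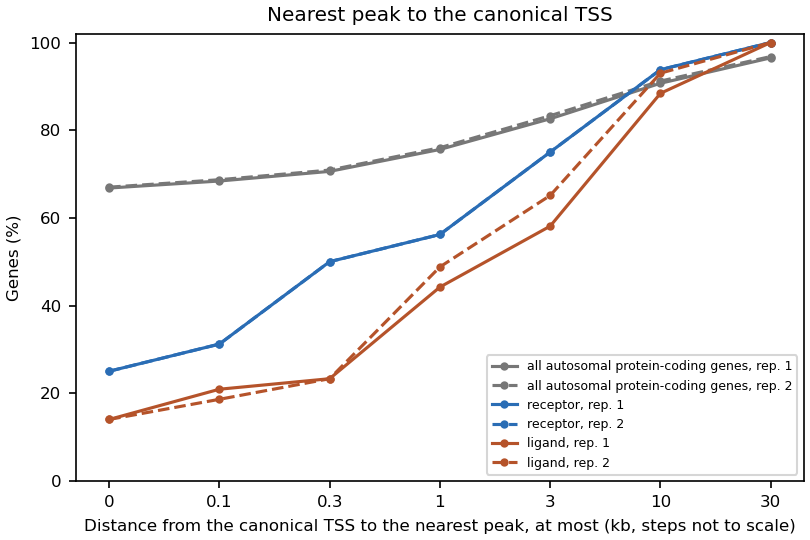
Share of genes (percent) whose canonical TSS lies at most the given distance (kb, in steps that are not to scale) from the nearest peak, for 43 ligand genes (brown), 16 receptor genes (blue) and all 19111 autosomal protein-coding genes (grey), in replicate 1 (solid) and replicate 2 (dashed; the receptor lines coincide). At distance 0, where the peak covers the TSS, the shares in replicate 1 are 14%, 25% and 66.8%, and at 10 kb they are 88.4%, 93.8% and 90.7%.

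The 4q13 cluster holds 6 CXC ligands of the set, which attract neutrophils through CXCR2. CXCL8, which encodes interleukin-8 and also acts on CXCR1, stood apart from the other 5: its canonical TSS lay under a peak of 62.1 in replicate 1 and 63.0 in replicate 2, at chr4:73740415-73740842 in replicate 1. That peak held 269 stacked reads at its highest base in replicate 1 (95% Poisson interval 238 to 303) and 284 in replicate 2 (252 to 319). CXCL3 had a peak of 6.90 and 7.52 over its canonical TSS, and CXCL2 one of 5.29 and 6.41. These rest on 22 to 33 stacked reads, and 13.6% of the 50-base words around the TSSs were shared by CXCL2 and CXCL3. Whether reads of the length used were placed uniquely there was not tested.

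The remaining genes of the cluster lacked a TSS peak in both replicates. The nearest peak to CXCL1 stood 1002 bp off in replicate 1 and 986 bp off in replicate 2, on either side of the limit of 1 kb. A stronger peak, of 26.9 and 30.3, lay 1264 bp upstream of its canonical TSS in both. CXCL6 had no peak closer than 2521 and 2502 bp, and the strongest within 10 kb reached 14.5 and 17.7. CXCL5 was the most isolated of all 59 genes, its nearest peaks being 22175 and 22170 bp off in replicates 1 and 2.

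The promoters of these 6 genes are shown so that the sequence before each start can be set beside its peak. Each line gives the 200 bases before the RefSeq start on the strand of the gene (RefSeq, GRCh38.p14, equal to hg38 in these windows), with capitals marking a TATA box, TATAAA on the gene strand, or a match on either strand to the consensus of NF-kappaB (kappaB), to AP-1 (TGANTCA), to C/EBP (TTGCNNAA) or to STAT (TTCNNNGAA).
CXCL8 (chr4:73740369-73740568, plus strand): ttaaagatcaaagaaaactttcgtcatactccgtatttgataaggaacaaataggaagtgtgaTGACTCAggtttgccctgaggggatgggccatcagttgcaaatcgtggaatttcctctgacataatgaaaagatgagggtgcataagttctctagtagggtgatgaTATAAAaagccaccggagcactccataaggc
CXCL1 (chr4:73869193-73869392, plus strand): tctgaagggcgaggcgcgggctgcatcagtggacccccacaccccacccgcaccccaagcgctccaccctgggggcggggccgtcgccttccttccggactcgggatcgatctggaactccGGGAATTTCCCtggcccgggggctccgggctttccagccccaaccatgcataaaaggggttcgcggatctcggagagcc
CXCL2 (chr4:74099196-74099395, minus strand): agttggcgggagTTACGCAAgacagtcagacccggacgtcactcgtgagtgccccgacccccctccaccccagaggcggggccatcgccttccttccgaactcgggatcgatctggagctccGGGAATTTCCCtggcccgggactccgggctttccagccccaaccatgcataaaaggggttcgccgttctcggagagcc
CXCL3 (chr4:74038690-74038889, minus strand): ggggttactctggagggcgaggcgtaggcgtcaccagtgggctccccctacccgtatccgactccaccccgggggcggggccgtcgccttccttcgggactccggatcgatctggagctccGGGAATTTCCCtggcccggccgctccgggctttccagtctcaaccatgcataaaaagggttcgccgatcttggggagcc
CXCL5 (chr4:73998678-73998877, minus strand): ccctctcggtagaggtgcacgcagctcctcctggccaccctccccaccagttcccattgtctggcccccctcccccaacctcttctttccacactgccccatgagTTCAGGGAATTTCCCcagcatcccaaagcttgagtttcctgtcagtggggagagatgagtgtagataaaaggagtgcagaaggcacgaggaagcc
CXCL6 (chr4:73836478-73836677, plus strand): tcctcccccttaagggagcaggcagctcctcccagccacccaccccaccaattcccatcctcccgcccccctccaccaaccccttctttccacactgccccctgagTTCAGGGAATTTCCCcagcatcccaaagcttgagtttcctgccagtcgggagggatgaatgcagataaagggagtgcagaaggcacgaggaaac

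The 5 genes other than CXCL8 each carried a kappaB match between 91 and 68 bases before the start, and all of these matches were pairs that overlap by all but 1 base. In CXCL5 and CXCL6 a STAT match overlaps the kappaB pair. CXCL2 carried a C/EBP match as well, 188 to 181 bases before the start. CXCL8 carried an AP-1 match 137 to 131 bases before the start and a TATA box 31 to 26 bases before it. It held no full match to the kappaB consensus used, GGGRNNYYCC (R for A or G, Y for C or T, N for any base). Its stretch TGGAATTTCC differs from that consensus in the first base alone, so the lack of a match rests on 1 base. In global alignments of these 200 bases, CXCL1, CXCL2 and CXCL3 were 76.9% to 80.8% identical and CXCL5 and CXCL6 were 86.1% identical, while CXCL8 shared 41.8% to 44.4% with the others. Genes with nearly the same kappaB stretch therefore had a weak peak over the TSS (CXCL2 and CXCL3) or none there in either replicate (CXCL1, CXCL5 and CXCL6). A match describes letters and not binding.

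Over all members with a RefSeq promoter, 42 of 59, the kappaB consensus was found in 26.2% of windows from 250 bases before to 50 after the start, beside 12.4% of all 14616 windows. The interferon regulatory factor motif GAAANNGAA was found in 26.2% beside 7.01%, AP-1 in 19% beside 5.69%, STAT in 21.4% beside 7.08%, C/EBP in 14.3% beside 8.35% and the TATA box in 35.7% beside 7.08%. At 6 of the 42 genes, CX3CR1, CXCL13, CXCR5, CCR6, CCL24 and CCL26, the RefSeq start lay more than 1 kb from the canonical TSS, so that the window there describes another start. Matches to different motifs can overlap, as in CXCL5. Similar promoters of duplicated genes, such as those of CXCL5 and CXCL6, each count as a window. The 1000 bp around the 5′-most TSS had a median G and C content of 48.7% in chemokine genes and 59.3% in all genes. The part of base composition and of duplication in these shares was not tested.

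The CXC ligands outside 4q13 ranged from no TSS peak to peaks of middling level. CXCL9 and CXCL11, interferon-induced attractants of T cells through CXCR3, had TSS peaks of 11.5 and 10.6, and of 8.05 and 8.18, in replicates 1 and 2, none over the canonical TSS. CXCL10, their neighbour with the same receptor, had none within 6675 bp in replicate 1 and 6670 bp in replicate 2. CXCL13, the B cell attractant that acts on CXCR5, reached 23.7 and 21.9, with midpoints 500 and 434 bp upstream of its canonical TSS. CXCL14, which many epithelia make constitutively, had 6.90 and 9.73. CXCL17, a chemokine of mucosal surfaces, had no peak within 1036 and 1289 bp of a TSS.

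CXCL16 and CX3CL1 encode the membrane-anchored chemokines, whose shed forms attract cells bearing CXCR6 and CX3CR1. CXCL16 had 10.1 and 7.74 at an alternative TSS and a weaker peak of 6.44 and 7.52 over the canonical one. CX3CL1 was far higher, at 71.1 and 57.9. That peak lay within 1 kb of an alternative start, which is 4482 bp downstream of the canonical TSS, and its midpoint fell in an exon. Another peak stood close to the canonical TSS of CX3CL1, 31 bp off in replicate 1 and 24 bp off in replicate 2.

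The 17q12 cluster holds 17 CC ligand genes, and 6 had a TSS peak in both replicates but 0 had it over the canonical TSS. Among the monocyte attractants that act on CCR2, CCL2 (also called MCP-1) had 9.20 and 9.29, with midpoints 488 and 465 bp upstream of its canonical TSS. CCL8 had 7.59 and 6.19, and CCL13 had 17.9 and 25.2 over an alternative start, the strongest TSS peak among the 17 genes. CCL7 had no peak within 5768 and 5803 bp. The eosinophil attractant CCL11 had none within 6103 and 5999 bp.

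CCL1, a ligand of CCR8 at the end of the same row, showed how the distance rule bears on a gene. It counted as closed, since its nearest peak was 1331 bp from a TSS in replicate 1 and 1341 bp in replicate 2. That peak, at chr17:34361462-34361902 within the gene body, was strong, at 55.0 and 53.3.

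In the second stretch of 17q12, CCL16 had TSS peaks of 7.13 and 5.97, and CCL15 and CCL15-CCL14 shared a peak of 10.4 and 8.62 that cannot be given to either of them. No peak lay within 1 kb of a TSS in either replicate at CCL5, CCL3 and CCL4, which encode inflammatory attractants of T cells and monocytes. Their nearest peaks were 8613 and 8598 bp, 4068 and 4067 bp, and 7531 and 7547 bp away. CCL14 was 4328 and 4326 bp from a peak, CCL23 12704 and 12758 bp, and CCL18, a product of macrophages, 2199 and 2194 bp.

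CCL3L3 and CCL4L2 are near copies of CCL3 and CCL4. CCL3L3 had a peak of 3.76 within 1 kb in replicate 2 and none closer than 3675 bp in replicate 1, and CCL4L2 had none within 10941 and 10921 bp. Of the 50-base words around their canonical TSSs, CCL4L2 shared 45.6% with CCL4 and CCL3L3 shared 3.79% with CCL3. How the authors handled reads that align to several places is not given in the sources used here, so peaks at these copies are uncertain, as they are at XCL1 and XCL2, which share 55.6%.

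**Figure D3:**
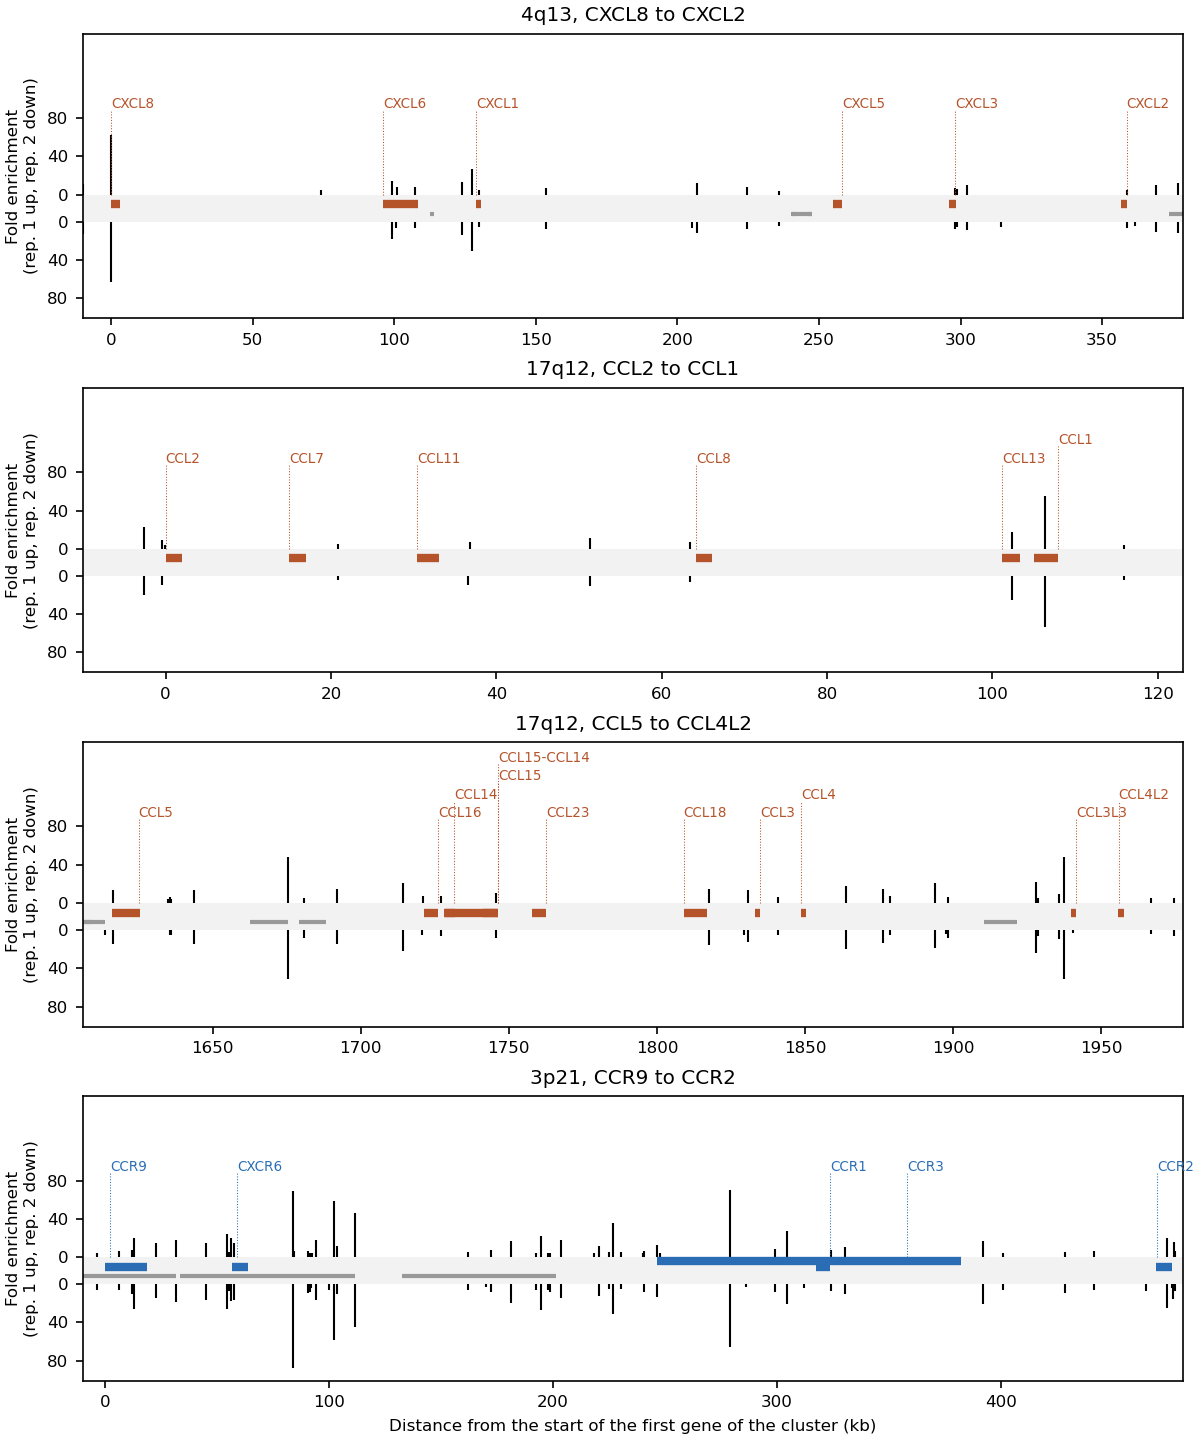
Peaks along the 4q13 cluster, both stretches of 17q12 and the 3p21 cluster as far as CCR2: vertical lines give each peak's fold enrichment, upward for replicate 1 and downward for replicate 2, against the distance (kb) from the start of the first gene of the cluster; bars mark the bodies of ligand genes (brown), receptor genes (blue) and other coding genes (grey), and dotted lines run from each canonical TSS to its name. The CXCL8 peak, at 62.1 and 63.0, is the strongest of the 4q13 cluster, and in the first stretch of 17q12 the strongest, at 55.0 and 53.3, lies in the body of CCL1.

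The CC ligands outside 17q12 followed no single pattern. At 16q21, CCL22 had a peak of 27.8 and 25.9 over its canonical TSS, and CCL17, which shares the receptor CCR4 with it, had 8.74 and 9.07, with midpoints 530 and 470 bp upstream. CCL27 and CCL28 both act on CCR10. Near CCL27 the strongest TSS peak reached 67.2 and 63.2, but its midpoint was closer to the start of the coding gene ENSG00000187186, and the peak over the canonical TSS of CCL27 had 10.8 and 12.8. CCL28 was the weakest open gene, at 4.37 and 3.98, on different peaks in each replicate and on 18 and 17 stacked reads.

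CCL19 and CCL21, the ligands of CCR7, had no peak within 9832 and 1350 bp and within 2664 and 2716 bp, CCL25, the ligand of CCR9, none within 1372 and 1354 bp, and CCL20, the ligand of CCR6, none within 2863 and 2872 bp. The eotaxins CCL24 and CCL26, at 7q11, had none within 4331 and 4337 bp and within 1591 and 1608 bp. XCL1 and XCL2, the ligands of XCR1, had none within 1550 and 2015 bp and within 12662 and 2057 bp. The 2 replicates differed most at CCL19 and XCL2, where the nearer peak was called in replicate 2 alone.

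Among the 26 genes without a TSS peak in both replicates, 17 (65.4%) had no peak over the gene body in either replicate, beside 49.7% of the 3732 genes of the autosomes without a TSS peak in both. In both replicates, 22 (84.6%) had a peak no more than 10 kb from a TSS, beside 61.8% of those genes. At 9 of the 26 (34.6%, beside 26.9%) the strongest such peak held a fold enrichment of at least 20 in both, a threshold chosen after the values were seen. Besides CXCL1 and CCL1 these were CXCL10, CXCL17, CCL19, CCL21, CCL26, CCL3L3 and the receptor gene CCR4. CCL19 and CCL21 were both counted on the same peak, of 39.35 in replicate 1 and 36.26 in replicate 2. Which gene such a peak belongs to cannot be told from these data. Gene length was not matched, and its part in the share without a peak over the gene body was not tested.

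Of the 16 receptor genes, the highest peak was that of CCR7, the receptor that guides lymphocytes and dendritic cells to lymph nodes. It held 83.5 in replicate 1 and 84.7 in replicate 2, on 362 stacked reads (95% Poisson interval 326 to 401) and 382 (345 to 422), at chr17:40560027-40560754. The peak fell in an intron, within 1 kb of an alternative start that lies 4459 bp downstream of the canonical TSS, and no peak covered the canonical TSS. In strength it exceeded 74.9% of the open genes of the autosomes.

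CCR3, the eotaxin receptor, was second among receptors, at 70.4 and 65.9. Its peak covered an alternative start 78856 bp upstream of the canonical TSS, which itself was not under a peak. CCR8, the receptor of CCL1, had 43.3 and 57.7 over its canonical TSS and was the receptor with the strongest peak there.

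The other receptors of 3p21 had lower values, and 0 of the 6 receptor genes of the cluster had a peak over the canonical TSS in both replicates. CXCR6, the receptor of CXCL16, had 19.6 and 18.1 over an alternative start 2531 bp upstream. CCR2, the receptor of CCL2, had 20.02 and 24.8, with midpoints 4448 and 4416 bp downstream of its canonical TSS. CCR1, a receptor of CCL3 and CCL5, had 7.13 and 6.85, with midpoints 216 and 204 bp upstream. CCR9, the gut-homing receptor, had no peak within 3398 and 3381 bp and was the only 1 of the 6 receptor genes counted here that had no TSS peak in either replicate.

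Outside 3p21, CXCR4, a receptor of homing to bone marrow, had 20.02 and 21.9 over its canonical TSS. CXCR1 and CXCR2, the receptors of CXCL8, had 13.3 and 13.3 over the canonical TSS and 8.97 and 6.19 at an alternative start. CX3CR1, the receptor of CX3CL1, had 13.1 and 12.4 over its canonical TSS.

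CXCR5 had 13.1 and 11.5, and CCR6 had 7.13 and 7.96. CCR10, the receptor of CCL27 and CCL28, had 26.7 and 23.2, though in replicate 1 the midpoint of the peak lay closest to a TSS of CNTNAP1. CCR4, the receptor of CCL17 and CCL22, had no peak within 2508 and 2469 bp, but one of 55.7 and 54.2 lay 3435 bp from its canonical TSS in replicate 1 and 3481 bp in replicate 2.

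The strongest TSS peak often lay beside a start rather than on it. That peak covered any of the gene's own TSSs at 14 of the 33 open genes in each replicate (42.4%), beside 81.9% of all open genes in replicate 1 and 82.2% in replicate 2. The TSS closest to it was the canonical one at 16 in each replicate (48.5%), beside 33.1% and 33.2% of all open genes. The 59 chemokine genes had a median of 2 annotated TSSs and all autosomal protein-coding genes 5. The part of this number in both of these shares was not tested, nor was the part of peak width. The midpoint of the strongest TSS peak fell in an exon at 11 genes in replicate 1 and 12 in replicate 2. It fell in an intron at 9 and 10, and outside the gene at 13 and 11. The same shares over all open genes were not computed.

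Chemokine genes differed from other genes in the base composition of their starts. CpG content was taken as the observed over the expected number of CpG dinucleotides in 1000 bp around the 5′-most TSS, with values under 0.35 called CpG-poor and values of 0.6 or more CpG-rich. The median was 0.171 for chemokine genes and 0.692 for all genes, and 83.1% of chemokine genes were CpG-poor beside 26.4% of all genes. The 6 CpG-rich genes were CXCR4, CXCL1, CXCL2, CXCL3, CXCL14 and CXCL16.

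Within the CpG-poor class, the share with a TSS peak was close to that of other genes, 27 of 49 chemokine genes (55.1%) beside 55.9% of all CpG-poor genes. The other measures still lay lower. The canonical TSS was under a peak at 12.2% of CpG-poor chemokine genes and 32.1% of all CpG-poor genes, and the median fold enrichment of the open ones, averaged over replicates, was 12.6 beside 31.6. Among CpG-rich genes, 5 of 6 chemokine genes (83.3%) were open beside 92.5% of all, but at a median of 8.32 beside 58.2. These shares are descriptions, and the part of base composition in them was not tested.

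**Figure D4:**
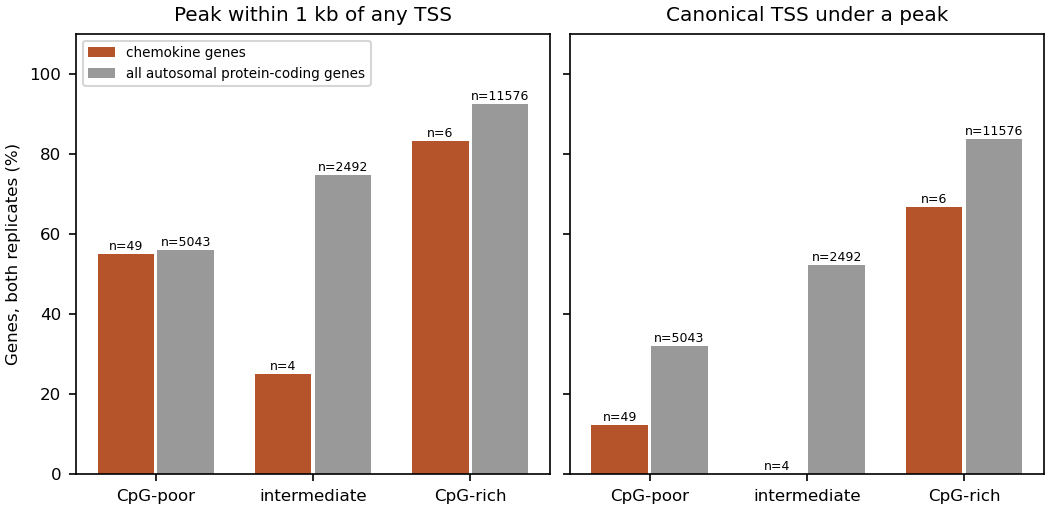
Percent of chemokine genes (brown) and of all autosomal protein-coding genes (grey) with a peak in both replicates, within 1 kb of any TSS (left) or over the canonical TSS (right), by CpG class, with the number of genes above each bar. Among CpG-poor genes the left bars stand at 55.1% and 55.9% and the right bars at 12.2% and 32.1%.

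The gene clusters differed in how much of their sequence lay under peaks. Over the autosomes, peaks covered 3.67% of bases in replicate 1 and 3.87% in replicate 2. The 4q13 cluster, of 358.7 kb, held 16 and 17 peaks that covered 1.28% and 1.26%. The 3p21 cluster had 4.20% and 4.60%, and 17q12 had 3.57% and 3.76% over 1958 kb that include 28 other coding genes.

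Taken as its separate stretches, 17q12 was sparser around the chemokine genes themselves. From CCL2 to CCL1, over 108 kb, peaks covered 1.86% and 1.71% of bases, and from CCL5 to CCL4L2, over 341.4 kb, 2.26% and 2.34%. The strongest peak between the ends of 17q12, of 98.9 and 100.6, lay about 116 kb from CCL5, between the stretches.

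The 57.28 kb at 16q21 that hold CCL22, CX3CL1 and CCL17 were the densest of the clusters examined. They carried 22 peaks in replicate 1 and 19 in replicate 2, which covered 20.6% and 19.1% of bases, with no other coding gene between them. All 3 genes were open in both replicates. The strongest peak of the stretch, of 98.0 and 109.9 at chr16:57392542-57393352 in replicate 1, lay between CX3CL1 and CCL17, with its midpoint 11820 bp from the nearest TSS of CCL17. CXCR2 and CXCR1 at 2q35 also sat in dense surroundings, with 10.9% and 11.9% of 41.67 kb under peaks.

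The rest of the pathway was open about as often as genes in general. Of 26 further genes, which encode atypical receptors, platelet chemokines, G proteins, kinases and arrestins of receptor signalling, shedding proteases and NF-kappaB factors, 20 (76.9%) had a TSS peak in both replicates, beside 80.5% of all genes, and 17 (65.4%) had the canonical TSS under a peak, beside 66.0%. The list was chosen with results of these data known and includes CXCR3, which lies on chromosome X. ACKR3, an atypical receptor that takes up chemokines without signalling through G proteins, had 67.4 and 69.2 over its canonical TSS. The scavenging receptor ACKR2 had 139 and 149, in a peak nearest to a TSS of HIGD1A in both replicates, while ACKR1 had 4.83 and 5.97. The platelet chemokine genes PF4, PF4V1 and PPBP, which lie within the 4q13 cluster, had no TSS peak in either replicate, nor had XCR1, the receptor of XCL1 and XCL2, and the kinase gene PIK3CG. CXCR3 itself, the receptor of CXCL9, CXCL10 and CXCL11, had 8.28 and 8.40.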

How the data were processed

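ATAC-seq peak lists of 2 biological replicates of CAMA-1 were used. The submitters' processing notes name Trim Galore 0.6.5, Bowtie2 2.3.5.1, MACS2 2.2.6 and hg38. Peaks were called in each replicate without pooling. The settings of MACS2 and the handling of duplicate or multiply aligned reads are not given in the sources used here. For each peak the authors deposited a score (10 times the −log10 q), a fold enrichment (a ratio to background), the −log10 p-value and the −log10 q-value, without read counts. Every deposited peak had a −log10 q of at least 2.24 (replicate 1) or 2.07 (replicate 2).

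Fold enrichments came in whole steps of 0.230 in replicate 1 and 0.221 in replicate 2, from which the background and the number of stacked reads were computed. Poisson intervals (95%) cover counting error only. A gene counted as open where a peak overlapped the 1 kb on either side of any TSS in GENCODE release 44, by at least 1 bp, in both replicates. Its level was that of its strongest such peak. Counts are set beside the share of all autosomal protein-coding genes, without a test, since the replicates form a single condition. All members are named except 1 that is counted but not reported here, and genes outside the family are named from lists of the pathway and of cell types or where they lie closer to a peak. The members, lists and motifs were chosen with earlier results of these data known.

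CpG classes were computed from hg38, motifs from RefSeq promoters (GRCh38.p14; 42 of 59 members matched), and identities from global alignments. Python 3.11.15, numpy 2.4.6, pandas 2.3.3, scipy 1.17.1, matplotlib 3.10.9 and Biopython 1.88 were used. The overlap functions were tested on simulated data. Alternatives were other distances, windows, TSS sets and peak thresholds, assignment of peaks to the nearest gene and the omission of each replicate.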

Additional observations from a re-analysis of the deposited data

How the results depend on the processing

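Of 80 alternatives over 9 results, 41 stayed close to the value reported and 39 moved. A count was called close where it differed from the reported one by at most 1.5-fold. A percentage or a median was called close only where it differed by less than the SD between replicates 1 and 2. These rules differ in strictness, so the tally does not measure robustness. Of the 59 genes, 18 were open within 100 bp of a TSS (30.5%, beside 74.29% of all genes), 18 in a narrower promoter window that ended 25 bp downstream (beside 73.92%), 44 within 3 kb (74.6%, beside 86.17%) and 7 with the 50000 strongest peaks of each replicate (11.9%, beside 62.58%), so that the share stayed below that of all genes at each distance. Ligand genes numbered 9 within 100 bp, 29 within 3 kb, 8 in the promoter window and 4 with the strongest peaks, and receptor genes 9 within 100 bp, 10 in the promoter window, 10 with the 5′-most TSS alone and 3 with the strongest peaks. In these 4 settings the receptor share fell below that of all genes, whereas it lay above it in the value reported. At 4q13 there were 5 within 3 kb and 1 with the strongest peaks. At 17q12 there was 1 within 100 bp, 1 in the promoter window and 0 with the strongest peaks. At 3p21 there were 3 within 100 bp, 3 with the 5′-most TSS alone and 1 with the strongest peaks. The share of all genes was 72.8% with the 5′-most TSS, 78.04% with peaks of a −log10 q from 10 upward, 74.3% with peaks given to the nearest gene and 81.28% to 81.79% with a single replicate. The median fold enrichment of open members in replicates 1 and 2 was 15.65 and 15.7 within 100 bp, 18.41 and 17.8 within 3 kb, 13.23 and 13.05 in the promoter window, 11.5 and 10.61 with the 5′-most TSS, 12.43 and 11.94 with the stricter q, 67.19 and 63.02 with the strongest peaks, and in replicate 2 11.94 with peaks given to the nearest gene. The canonical TSS alone (28 genes within 1 kb) was among 3 alternatives chosen after the data were seen. No paired analysis was possible because there was only 1 group.

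A list of called peaks gives no value where nothing was called, so a gene without a peak was not detectably open at the depth of these libraries. Copy number was not analysed here, and fold enrichment rises with it. Expression was not analysed here either.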
